A study of Mus musculus with 28 samples.

Results

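The genes Glycam1, Madcam1, Ccl19, Ccl21a, Cxcl13, Cxcr5, Lta, Ltb and Ltbr, 9 genes of high endothelial venules and lymphoid tissue, were followed in whole AB1-HA tumors. They were taken by gene symbol from both deposited count matrices, and all 9 were found among the 55341 rows of each. The 9 were chosen by their log2 level in these same tumors, across the 6 treatment groups and between tumors of a group, so their levels and their differences between groups are given here as a description, without p-values. AB1-HA is a transplantable mouse mesothelioma line carrying influenza haemagglutinin, and it was grown under the skin of the right flank of female BALB/c mice (BALB/c.AusBP in the labels) aged 8 to 10 weeks. Treatment began once a tumor measured 20 to 25 mm2, and whole tumors were taken 7 days later for RNA sequencing. The 28 tumors fell into 6 groups: PBS (n = 4), immune checkpoint blockade (ICB, n = 5), 5-fluorouracil (5-FU, n = 5), cisplatin (n = 4), 5-FU+ICB (n = 5) and cisplatin+ICB (n = 5). ICB was an anti-CTLA-4 antibody with an anti-PD-L1 antibody, 100 µg of each, followed by 2 more anti-PD-L1 doses 2 days apart, the 5-FU dose was 75 mg/kg, and that of cisplatin was 6 mg/kg. The model is 1 cell line at a subcutaneous site, and a whole tumor also holds whatever stroma, skin, fat, muscle or adjoining lymphoid tissue was excised with it. The labels do not say which tumors were treated or processed together, so p-values measure only the spread between these tumors.

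High endothelial venules are the vessels through which naive lymphocytes leave the blood in lymph nodes, and their tall endothelial cells carry sulfated sugars that lymphocytes recognise. Stromal cells around them make the chemokines that then guide T cells, dendritic cells and B cells into their zones. Lymphotoxin made by lymphocytes and lymphoid tissue inducer cells acts on the lymphotoxin beta receptor of stromal and endothelial cells, and through the alternative NF-kappaB pathway it maintains both the vessels and the chemokines. The same programme can appear outside lymph nodes, in tertiary lymphoid structures of inflamed tissue and tumors.

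In GRCm38, with the GENCODE M21 annotation, all 9 are protein coding genes. Ccl19 (chr4:42754525-42756577) and Ccl21a (chr4:42772860-42773993) are neighbours on the minus strand of chromosome 4, and Ltb (chr17:35194439-35196320, plus strand) and Lta (chr17:35203165-35205351, minus strand) lie on either side of Tnf (chr17:35199381-35202007, minus strand). The others are Glycam1 (chr15:103562759-103565081, minus strand), Madcam1 (chr10:79664559-79668537, plus strand), Cxcl13 (chr5:95956951-95961068, plus strand), Cxcr5 (chr9:44511787-44561877, minus strand) and Ltbr (chr6:125306571-125313885, minus strand). RefSeq promoters of GRCm38.p6, which run from 250 bases before to 50 bases after a start site, were found for 8 of the 9 genes, and Cxcr5 had no entry. They were searched on both strands for the kappaB consensus, the 10-base motif of NF-kappaB proteins, because lymphotoxin receptor signalling ends in those proteins. A match was present in 2 of the 8, Madcam1 and Ltb, and in 4.51% of all 32851 promoters of that length. The Madcam1 promoter held 2 matches, starting 83 and 70 bases before the start site, and the Ltb promoter held 1 match starting 87 bases before it. The bases before the start site are shown 5′ to 3′ for these 2 genes with the matches in capitals, all 250 for Madcam1 and, for Ltb, the 182 that lie outside the annotated gene. Those of Glycam1, the other addressin, and Lta, the partner of Ltb, are shown for comparison and hold no match.
Madcam1 (chr10:79664309-79664558, plus strand): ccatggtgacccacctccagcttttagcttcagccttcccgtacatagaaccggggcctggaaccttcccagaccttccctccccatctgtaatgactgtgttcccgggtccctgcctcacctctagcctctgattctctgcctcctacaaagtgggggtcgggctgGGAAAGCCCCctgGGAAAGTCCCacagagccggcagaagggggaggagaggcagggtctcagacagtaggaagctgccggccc
Ltb (chr17:35194257-35194438, plus strand): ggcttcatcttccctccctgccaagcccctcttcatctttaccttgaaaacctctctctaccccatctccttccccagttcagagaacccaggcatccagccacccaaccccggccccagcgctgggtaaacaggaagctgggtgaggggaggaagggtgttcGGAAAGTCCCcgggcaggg
Glycam1 (chr15:103565082-103565331, minus strand): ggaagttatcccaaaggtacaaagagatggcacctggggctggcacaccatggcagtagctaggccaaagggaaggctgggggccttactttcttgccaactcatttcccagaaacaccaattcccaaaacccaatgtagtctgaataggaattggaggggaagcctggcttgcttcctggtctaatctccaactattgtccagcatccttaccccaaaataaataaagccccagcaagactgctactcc
Lta (chr17:35205352-35205601, minus strand): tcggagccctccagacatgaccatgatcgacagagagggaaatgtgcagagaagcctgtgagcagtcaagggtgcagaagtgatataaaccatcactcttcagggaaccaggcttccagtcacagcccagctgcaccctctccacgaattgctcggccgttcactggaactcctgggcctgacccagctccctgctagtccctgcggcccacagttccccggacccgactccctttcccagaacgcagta
A match describes the letters of the window and is not a measured binding site.

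Libraries held 23541733 to 33950805 estimated counts, and levels are given as CPM, counts relative to library size after scaling by trimmed mean of M values (TMM) over all 28 tumors. On that scale 3 counts, the least taken here as detection, were 0.0822 to 0.159 CPM. A pair of libraries stood apart from their groups. 5-FU+ICB tumor 5 had a median correlation of 0.919 with its group, where tumor 2 of the same group had 0.932 and the other 25 tumors apart from cisplatin+ICB tumor 1 had 0.951 to 0.981, and 0.5 CPM of mesothelin (Msln), the marker of the mesothelioma cells, where the other 27 tumors had 34.4 to 654 CPM. Cisplatin+ICB tumor 1 had a median correlation of 0.845 with its group, the lowest TMM factor (0.685) and the highest Msln (654 CPM). Values without these tumors are given for the fitted changes and the counts of genes called.

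**Figure D1:**
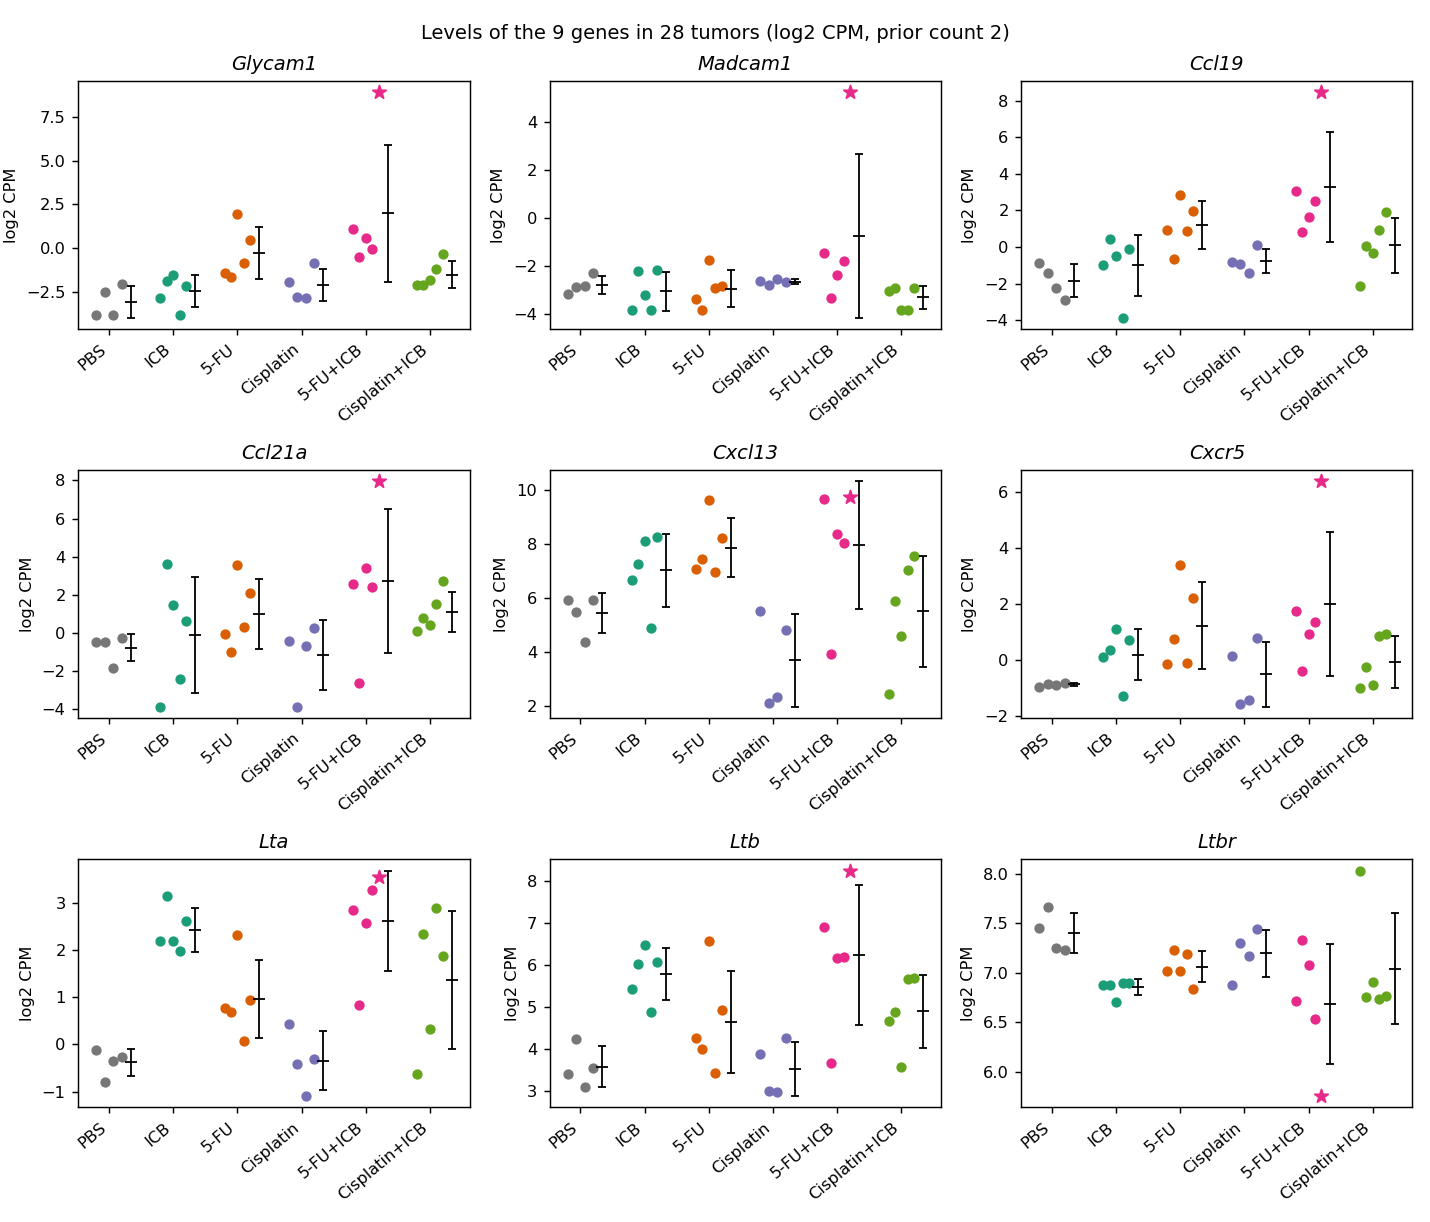
Level of each gene as log2 CPM (vertical axis) in each of the 28 tumors, by treatment group; points are tumors, the star is 5-FU+ICB tumor 5, and the bars beside the points give the group mean and SD. The star is the highest point for 8 of the 9 genes and the lowest for Ltbr.

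Glycam1 encodes a secreted mucin of high endothelial venules that carries such sugars, and it was close to the detection limit in PBS tumors, higher in both 5-FU groups, and very abundant in 1 tumor. Its level was 0, 0.102, 0 and 0.166 CPM in PBS tumors 1 to 4 and 0.0681, 0.2, 0.276, 0 and 0.151 CPM in ICB tumors 1 to 5. In the 5-FU tumors it was 0.301, 0.252, 3.74, 0.489 and 1.29 CPM. In the 5-FU+ICB tumors it was 2.05, 0.62, 1.42, 0.897 and 491 CPM. Every tumor given 5-FU, with or without ICB, was thus above every PBS tumor, and 5-FU+ICB tumor 5 held 131 times the level of the next highest tumor, 5-FU tumor 3. The cisplatin tumors, at 0.187, 0.0762, 0.0671 and 0.474 CPM, and the cisplatin+ICB tumors, at 0.159, 0.159, 0.206, 0.371 and 0.712 CPM, overlapped with PBS. The 4 PBS libraries held 8 Glycam1 counts in all and the 5-FU libraries 154, a ratio of 14.6 per unit of depth (95% exact interval 7.24 to 34.5). Without tumor 5 the 5-FU+ICB libraries held 139, a ratio of 16.8 (8.28 to 39.6) and with it 9965, a ratio of 1025 (520.2 to 2376). Those intervals cover counting error only. On the log2 scale, the fitted fold change of Glycam1 from PBS was 0.92 ± 2.95 (SE) with ICB, 3.99 ± 2.35 with 5-FU and 10.41 ± 2.43 with 5-FU+ICB, and 4.09 ± 1.06 for 5-FU+ICB without tumor 5. Against 5-FU alone, 5-FU+ICB was higher by 6.43 ± 1.71 with tumor 5 and by 0.05 ± 0.80 without it.

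Madcam1 encodes the mucosal addressin, the endothelial ligand of integrin alpha4 beta7, and it was practically absent outside 1 tumor. The other 27 libraries held 0 to 8 counts each, 0 to 0.298 CPM, and 21 of the 28 tumors had 3 counts or fewer. 5-FU+ICB tumor 5 held 759 counts, or 38.0 CPM. The next highest values, 0.298 CPM in 5-FU+ICB tumor 1, 0.223 CPM in 5-FU tumor 3 and 0.217 CPM in 5-FU+ICB tumor 4, all came from tumors given 5-FU but rest on 5 to 8 counts. Madcam1 did not pass the filter on low counts in either matrix, and Glycam1 did not pass it in the cisplatin matrix, so no fold change was fitted for them there.

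Ccl19 encodes a ligand of CCR7 made by fibroblastic reticular cells and mature dendritic cells. PBS tumors 1 to 4 had 0.487, 0.305, 0.145 and 0.0664 CPM, and ICB tumors 1 to 5 had 0.443, 1.26, 0.632, 0 and 0.869 CPM. The 5-FU tumors had 1.86, 0.575, 7.04, 1.8 and 3.8 CPM. In 5-FU+ICB tumors the level was 8.34, 1.71, 3, 5.57 and 349.6 CPM. Neither 5-FU group overlapped with PBS, and 5-FU+ICB did not overlap with ICB, since the lowest of its tumors (1.71 CPM) was above the highest ICB tumor (1.26 CPM). The cisplatin tumors had 0.5, 0.457, 0.302 and 1.01 CPM, and the cisplatin+ICB tumors 0.159, 0.957, 0.737, 1.83 and 3.69 CPM. Apart from tumor 1, the cisplatin+ICB tumors were above every PBS tumor. The fitted log2 fold change from PBS was 1.39 ± 1.62 with ICB, 3.59 ± 1.58 with 5-FU, 1.19 ± 0.94 with cisplatin and 2.58 ± 0.91 with cisplatin+ICB (2.91 ± 0.86 without its tumor 1). For 5-FU+ICB it was 8.24 ± 1.80, and 4.22 ± 0.97 without tumor 5. Against ICB alone it was 6.85 ± 1.48, and 2.84 ± 0.81 without tumor 5.

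Ccl21a encodes the other CCR7 ligand, which high endothelial and lymphatic cells display, and its level was scattered within the treated groups. Its level was 0.649, 0.644, 0.217 and 0.764 CPM in PBS tumors and 0, 12.3, 2.72, 0.122 and 1.51 CPM in ICB tumors. The 5-FU tumors had 0.904, 0.431, 11.8, 1.16 and 4.27 CPM. The 5-FU+ICB tumors ran from 0.093 CPM in tumor 2 through 5.32, 5.88 and 10.4 CPM to 248 CPM in tumor 5. The ICB, 5-FU and 5-FU+ICB groups thus each overlapped with PBS while also holding tumors far above it. Only the cisplatin+ICB tumors, at 1.01, 1.69, 1.27, 2.78 and 6.66 CPM, were all above PBS, while cisplatin tumors had 0.687, 0, 0.57 and 1.13 CPM. From PBS, the fitted Ccl21a change was 2.59 ± 1.70 with ICB, 2.69 ± 1.71 with 5-FU, 2.25 ± 1.21 with cisplatin+ICB (2.51 ± 1.24 without its tumor 1) and 6.59 ± 1.97 with 5-FU+ICB (3.26 ± 1.45 without tumor 5). The ICB value became 0.96 without ICB tumor 2 and the 5-FU value 1.56 without 5-FU tumor 3. ICB tumor 2 also held the highest keratinocyte markers of the 28 tumors (439.9 CPM in sum) and 582 CPM of mature dendritic cell markers, whose part in its Ccl21a level was not tested. Mouse chromosome 4 carries near-identical copies of Ccl21a and pseudogenes of Ccl19, and reads of such copies can be split between them, so both levels are uncertain in that respect. Over the 28 libraries Ccl21a held 7115 counts and its listed copies Ccl21b, Gm10591, Gm13304 and Gm21541 held 2, 2, 3 and 0, while Ccl19 held 8362 and Ccl19-ps1 held 169.

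Cxcl13 encodes the chemokine that draws B cells and follicular helper T cells into follicles, and it was the most abundant chemokine of the set in every group, also per kilobase of exon (a median of 45.7 CPM per kilobase in PBS, against 0.259 for Ccl19 and 0.743 for Ccl21a). PBS tumors had 60.7, 44.5, 20.4 and 61.1 CPM, ICB tumors 100.1, 153, 276, 29.7 and 304 CPM, and 5-FU tumors 136, 175, 788, 125.1 and 300.4 CPM. The 5-FU tumors were all above PBS, and 4 of the 5 ICB tumors were. 5-FU+ICB tumors had 812, 15.2, 335, 262 and 863 CPM, so that tumor 2 was below every PBS tumor and the other 4 above. Here tumor 5 was only 1.06 times the next highest tumor. The cisplatin tumors, at 45.3, 4.23, 4.93 and 27.7 CPM, reached the lowest values of the series and did not overlap with 5-FU. Cisplatin+ICB tumors had 5.35, 58.5, 24.1, 132 and 189 CPM. For Cxcl13 the fitted log2 fold change from PBS was 1.89 ± 0.85 with ICB, 2.71 ± 0.88 with 5-FU, -1.18 ± 0.92 with cisplatin, 0.82 ± 0.87 with cisplatin+ICB (1.18 ± 0.79 without its tumor 1) and 3.31 ± 0.91 with 5-FU+ICB (2.94 ± 0.91 without tumor 5). The cisplatin value was -1.92 without cisplatin tumor 1, and the cisplatin+ICB value 0.25 without its tumor 5.

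Cxcr5, the CXCL13 receptor of B cells and follicular helper T cells, was even in PBS tumors, at 0.446, 0.475, 0.47 and 0.498 CPM. ICB tumors had 0.988, 1.2, 2.09, 0.335 and 1.55 CPM, and 5-FU tumors had 0.822, 1.62, 10.5, 0.855 and 4.55 CPM. 5-FU+ICB tumors had 3.28, 0.682, 1.82, 2.44 and 82.9 CPM. Both 5-FU groups were above PBS without overlap, as were 4 of the 5 ICB tumors. The cisplatin tumors, at 1.03, 0.267, 0.302 and 1.63 CPM, and the cisplatin+ICB tumors, at 0.424, 0.765, 0.471, 1.73 and 1.8 CPM, lay on both sides of the PBS range. Relative to PBS, the Cxcr5 log2 fold change was 2.96 ± 1.25 with 5-FU and 5.30 ± 1.37 with 5-FU+ICB, which became 2.14 ± 0.76 without tumor 5. Against 5-FU alone, 5-FU+ICB changed sign with that tumor, from 2.34 ± 1.07 to -0.82 ± 0.68.

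Lta, which encodes lymphotoxin alpha, was higher in every ICB, 5-FU and 5-FU+ICB tumor than in any PBS tumor. It was at 0.852, 0.509, 0.723 and 0.764 CPM in PBS and at 4.5, 8.83, 4.5, 3.84 and 6.05 CPM in ICB tumors. 5-FU tumors had 1.64, 1.55, 4.9, 0.978 and 1.86 CPM, and 5-FU+ICB tumors 7.15, 1.71, 5.92, 9.65 and 11.6 CPM. The cisplatin tumors, at 1.28, 0.686, 0.403 and 0.74 CPM, lay around PBS, and cisplatin+ICB tumors had 0.583, 4.94, 1.18, 7.3 and 3.59 CPM, all above PBS apart from tumor 1. Lta had a fitted log2 fold change from PBS of 2.99 ± 0.54 with ICB, 1.63 ± 0.52 with 5-FU, 0.14 ± 0.59 with cisplatin, 3.38 ± 0.55 with 5-FU+ICB (3.14 ± 0.54 without tumor 5) and 2.32 ± 0.58 with cisplatin+ICB (2.67 ± 0.49 without tumor 1).

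Ltb encodes lymphotoxin beta, which anchors lymphotoxin alpha at the cell surface, and by mean log2 CPM its 3 highest groups were those given ICB. PBS tumors had 10.5, 19.0, 8.57 and 11.6 CPM and ICB tumors 43.0, 65.1, 88.7, 29.5 and 67.3 CPM, without overlap. The 5-FU tumors had 19.3, 16.0, 95.3, 10.7 and 30.5 CPM. The 5-FU+ICB tumors had 119, 12.7, 72.1, 72.6 and 303 CPM, so that tumor 2 was within the PBS range. Cisplatin tumors had 14.6, 7.96, 7.75 and 19.2 CPM, and cisplatin+ICB tumors had 25.3, 29.6, 11.9, 50.4 and 51.2 CPM. Per kilobase of exon the median level was 7.29 CPM for Ltb and 0.538 CPM for Lta in PBS, and 42.9 CPM and 3.25 CPM in ICB tumors. The fitted log2 fold change of Ltb from PBS was 2.25 ± 0.74 with ICB, 1.47 ± 0.71 with 5-FU, 1.45 ± 0.43 with cisplatin+ICB (1.60 ± 0.46 without its tumor 1) and 3.24 ± 0.77 with 5-FU+ICB (2.49 ± 0.67 without tumor 5). Without 5-FU tumor 3 the Ltb value with 5-FU was 0.62.

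Ltbr, the receptor of the lymphotoxin heterotrimer, is found on stromal, endothelial and tumor cells and not on lymphocytes, and it moved the other way within a narrow range. PBS tumors had 174, 203, 152 and 150.4 CPM and ICB tumors 117, 118, 104, 119 and 119 CPM, all lower. The 5-FU tumors had 114 to 150.3 CPM, the cisplatin tumors 118 to 173 CPM, and the 5-FU+ICB tumors 105, 161, 135, 92.9 and 54.3 CPM. The cisplatin+ICB tumors had 107 to 119.8 CPM apart from tumor 1, which had the highest value of the series, 261 CPM. For Ltbr the fitted values were -0.54 ± 0.21 with ICB, -0.35 ± 0.21 with 5-FU, -0.63 ± 0.21 with 5-FU+ICB (-0.46 ± 0.16 without tumor 5) and -0.25 ± 0.24 with cisplatin+ICB (-0.55 ± 0.15 without tumor 1).

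By mean log2 CPM, 5-FU+ICB was the highest of the 6 groups for 8 of the 9 genes, all but Ltbr, and for 4 of them without tumor 5 (Glycam1, Madcam1, Ccl19 and Ccl21a). Neighbours in the order of the 6 means mostly differed by less than the larger of their SDs. The exceptions with all 28 tumors were cisplatin below PBS for Cxcl13 (a gap of 1.74), 5-FU above cisplatin for Lta (1.30) and ICB above cisplatin+ICB for Ltb (0.88). Without tumor 5 the 5-FU+ICB mean for Ltb fell between those of ICB and cisplatin+ICB, so these were no longer neighbours. A single tumor could carry most of the set: 5-FU+ICB tumor 5 ranked first of 28 for all 8 genes other than Ltbr, and 5-FU tumor 3 and 5-FU+ICB tumor 1 were each in the top 5 for 7 of the 8. No PBS or cisplatin tumor was in the top 5 for any of them. The share of the summed 5-FU+ICB level that came from tumor 5 was 99.0% for Glycam1, 98.3% for Madcam1, 94.9% for Ccl19, 91.9% for Ccl21a and 91.0% for Cxcr5, and 52.2% for Ltb, 37.7% for Cxcl13 and 32.2% for Lta.

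**Figure D2:**
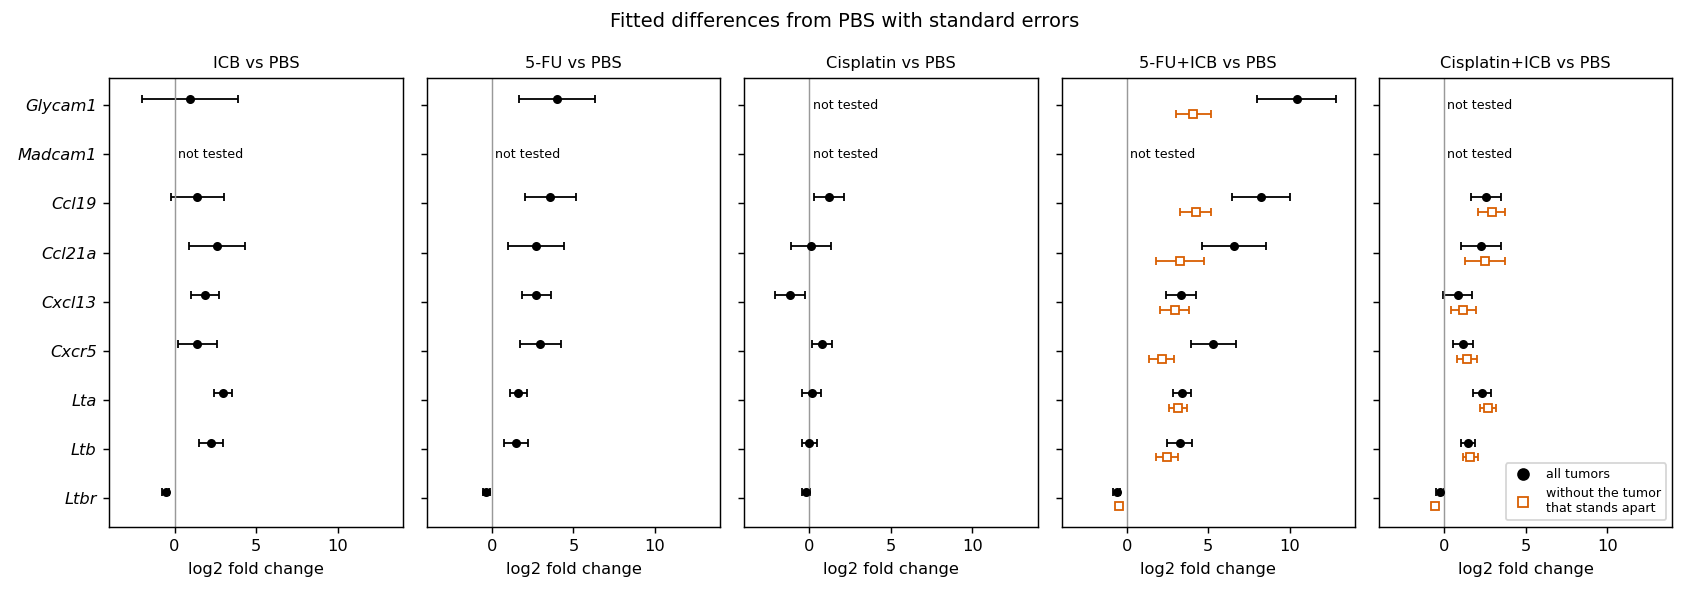
Fitted log2 fold change from PBS with its SE (horizontal axis) for each gene in 5 comparisons; filled circles use all tumors, and open squares leave out 5-FU+ICB tumor 5 or cisplatin+ICB tumor 1. For Glycam1 with 5-FU+ICB the estimate goes from 10.41 to 4.09, while for Lta it goes from 3.38 to 3.14.

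For the count of genes past the study's thresholds (an adjusted p under 0.05 with a log2 change of more than 0.5 either way, here by edgeR's quasi-likelihood test over all genes), 8 of the 9 genes could be tested in the 5-FU matrix and 7 in the cisplatin matrix. Since these contrasts were known when the genes were picked, nothing is read from the counts. With ICB against PBS, 3 of 8 passed (Lta, Ltb and, lower, Ltbr), where 37.8% of all genes did. Leaving out single tumors gave 1 to 4, while 5176 to 7412 of all genes were called in those fits, and Ltbr was lost under most settings. With 5-FU, 2 of 8 passed (Cxcl13 and Lta) beside 23.0% of all genes. That count was 0 without any 1 of the 4 PBS tumors (10.5%, 7.87%, 25.9% and 23.2% of all genes) or 5-FU tumor 3 (16.5%), 1 without 5-FU tumor 5 (14.1%), and 5 without 5-FU+ICB tumor 5 (27.0%), which shares the fit. It was also 0 with the replicate number as a block (18.6%) and in a joint fit of all 6 groups (4.45%). With 5-FU+ICB, all 8 passed beside 40.7%, and 6 beside 36.8% without tumor 5, when Ccl21a and Ltbr no longer passed. DESeq2 gave no p for Ccl19, Ccl21a, Cxcr5, Glycam1 and Madcam1 in the 5-FU matrix, and called the other 4 (34.7% of all genes). Ccl21a was also lost with the replicate block (35.8%), and Ltbr without PBS tumor 1 (32.0%) or 2 (30.6%), in the joint fit (31.4%) and with no filter on low counts (18.0%), when Madcam1 passed. With cisplatin+ICB, Lta alone passed of 7, beside 6.10%, and 4 passed beside 35.3% without its tumor 1 (Ccl19, Lta, Ltb and Ltbr). Lta was lost there without any 1 of the PBS tumors or of cisplatin+ICB tumors 2, 4 and 5, and with the replicate block (0% without PBS tumor 1, 3 or 4, 4.35% without PBS tumor 2, 1.40%, 1.50% and 2.04% without those combination tumors and 0.533% with the block), while DESeq2 called Ccl19, Lta and Ltb (10.1%). With cisplatin alone, 0 of 7 passed, beside 0% of all genes. None passed for a combination against ICB alone (0.229% of all genes for 5-FU+ICB, 0.208% without its tumor 5, and 0% for cisplatin+ICB) or against the chemotherapy alone (0.0112% and 0%) by edgeR. The joint fit called Ccl19 and Glycam1 for 5-FU+ICB against ICB (0.270% of all genes), DESeq2 called none there (1.68%, with a p for 4 of the genes), and it called Lta for 5-FU+ICB against 5-FU (2.97%) and Lta and Ltb for cisplatin+ICB against cisplatin (4.20%). Leaving out 5-FU+ICB tumor 2 let Ccl19, Glycam1, Lta and Ltb pass against 5-FU (10.9% of all genes) and Ccl19 and Glycam1 pass against ICB (0.224%). Leaving out 5-FU tumor 3 let Glycam1, Lta and Ltb pass against 5-FU (3.58%), leaving out 5-FU+ICB tumor 4 let Ccl19 and Glycam1 pass against ICB (0.468%), and leaving out cisplatin+ICB tumor 1 or 3 let Lta and Ltb pass against cisplatin (11.9% and 3.04%).

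Groups that did not overlap were counted in the same way. With 5-FU, 5 of the 8 genes tested had every treated tumor above every PBS tumor (Ccl19, Cxcl13, Cxcr5, Glycam1 and Lta), where 10.4% of all genes did. With 5-FU+ICB 4 of 8 did beside 11.4% (Ccl19, Cxcr5, Glycam1 and Lta), and the same 4 beside 12.9% without tumor 5. With cisplatin+ICB it was 1 of 7 beside 3.56% (Ccl21a), and 3 of 7 beside 17.9% without its tumor 1 (Ccl19, Ccl21a and Lta), when Ltbr was below every PBS tumor. In either direction, ICB and PBS did not overlap for 3 of 8 beside 36.4%, and cisplatin and PBS for 0 of 7 beside 3.40%. 5-FU+ICB was wholly above ICB for Ccl19 and Glycam1, 2 of 8, beside 0.748%, and also without tumor 5, beside 1.40%.

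The genes were set beside lists of cell type markers, because in a whole tumor fewer cells of a type and less RNA per cell cannot be told apart. The 9 B cell markers together had 18.3 to 23.3 CPM in PBS, 10.9 to 32.2 CPM in ICB, 22.8 to 134 CPM in 5-FU, 18.1 to 41.3 CPM in cisplatin and 11.3 to 31.8 CPM in cisplatin+ICB tumors. The range in 5-FU+ICB tumors was 19.9 to 42.5 CPM in tumors 1 to 4 and 1039.6 CPM in tumor 5. All 9 B cell markers were at their highest of the 28 tumors in tumor 5 (Cd79a at 287 CPM and Cr2, the complement receptor of B cells and follicular dendritic cells, at 23.6 times the next tumor), and 5-FU tumor 3 was second for each. Cxcr5 made up 1.92% to 2.57% of the B cell list in PBS, 3.07% to 13.9% in ICB, 2.86% to 7.92% in 5-FU and 3.43% to 7.98% in 5-FU+ICB tumors. The 5 follicular helper T cell markers, led by Pdcd1, summed to 32.7 to 42.1 CPM in PBS, 103 to 234 CPM in ICB, 41.9 to 155 CPM in 5-FU, 35.6 to 48.4 CPM in cisplatin, 30.5 to 174 CPM in cisplatin+ICB and up to 413 CPM in 5-FU+ICB tumors, with a median of 161 CPM. Cxcr5 followed this list at r = 0.70 over the 27 tumors other than tumor 5. Over the 27 tumors without tumor 5, log2 Cxcr5 correlated with the B cell list at r = 0.78, and at 0.84 once group means were removed. The 2 genes most like Cxcr5 over 28 tumors were Ms4a1 (r = 0.966) and Bank1 (r = 0.963), both B cell genes.

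The 5 T cell markers summed to 16.5 to 29.2 CPM in PBS, 79.1 to 328 CPM in ICB, 25.1 to 239 CPM in 5-FU, 12.3 to 36.0 CPM in cisplatin, up to 197 CPM in cisplatin+ICB and 31.5 to 759 CPM in 5-FU+ICB tumors, where tumor 2 had the lowest value and tumor 5 the highest. Ltb followed this list at r = 0.97 over 27 tumors and 0.94 within groups, and Lta at 0.92 and 0.80. Ltb followed the macrophage list as closely (0.96 in both). The genes most like Ltb were Cd3d (r = 0.988) and Lck (r = 0.985), a subunit and a kinase of the T cell receptor complex, and those most like Lta were Icam1 (r = 0.968) and Slc1a2 (r = 0.967). Set against the T cell list, Ltb stood at 46.2% to 64.9% of it in PBS and 44.3% to 64.5% in cisplatin tumors. It stood at 27.0% to 41.2% in ICB, 29.6% to 46.1% in 5-FU and 23.2% to 40.2% in 5-FU+ICB tumors, all below PBS. The highest 5-FU tumor was practically level with the lowest PBS tumor, with medians of 39.8% in 5-FU and 60.5% in PBS. The cisplatin+ICB tumors stood at no more than 36.1% of the list apart from tumor 1, at 93.7%. Lta showed no such difference, at 1.74% to 5.15% in PBS and 1.37% to 5.59% in ICB tumors. The leukocyte gene Ptprc ranged from 75.0 to 105 CPM in PBS, 245 to 443 CPM in ICB, 97.7 to 331 CPM in 5-FU and 105 to 723 CPM in 5-FU+ICB tumors.

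The 8 blood endothelial markers summed to 111 to 164 CPM in PBS, 165 to 328 CPM in ICB, 161 to 375 CPM in 5-FU, 103 to 133 CPM in cisplatin, 95.4 to 202 CPM in cisplatin+ICB and 194 to 389 CPM in 5-FU+ICB tumors 1 to 4, with 827 CPM in tumor 5. Glycam1 stood at 59.4% of this list in tumor 5 and at 0.319% to 0.527% in the other 5-FU+ICB tumors. Lymphatic endothelial markers summed to 4.18 to 6.29 CPM in PBS, 6.27 to 33.75 CPM in ICB, 10.5 to 53.3 CPM in 5-FU and 6.61 to 8.69 CPM in cisplatin tumors. They summed to 3.29 to 21.3 CPM in cisplatin+ICB and 8.47 to 52.4 CPM in 5-FU+ICB tumors 1 to 4, with 106 CPM in tumor 5. The 6 mature dendritic cell markers, led by Fscn1, summed to 113 to 172 CPM in PBS, 128 to 582 CPM in ICB, 154 to 304 CPM in 5-FU, 122 to 174 CPM in cisplatin, 72.0 to 238 CPM in cisplatin+ICB and 153 to 415 CPM in 5-FU+ICB tumors 1 to 4, with 949 CPM in tumor 5. Ccl19 followed that list at r = 0.60 over the 27 tumors without tumor 5. Over 28 tumors the genes most like Glycam1 were Pcdh15 and S1pr1 (both r = 0.925, and 0.774 and 0.813 without tumor 5). Ccl19 was most like Chst4 (r = 0.937), the sulfotransferase of high endothelial cells, and Mme (r = 0.926), a peptidase of lymphoid stroma, at 0.886 and 0.901 without tumor 5. Madcam1 was most like Prnp (r = 0.900) and Kcne4 (r = 0.882), which fell to 0.671 and 0.595 without it. Ccl21a was most like Syt13 (r = 0.884) and Bend5 (r = 0.883), Cxcl13 like Rtn4rl1 (r = 0.935) and Ptger4 (r = 0.917), and Ltbr like Layn (r = 0.968) and Tmem171 (r = 0.951). Without tumor 5 the leading pair was Apod (0.914) and Chl1 (0.903) for Glycam1 and Cyp1b1 (0.931) and Chl1 (0.930) for Ccl19, and the first gene was Rcc1l (0.980) for Ltbr, Siglece (0.943) for Cxcl13, Ogdhl (0.852) for Ccl21a, Cd79b (0.945) for Cxcr5 and Slc15a3 (0.966) for Lta, while Prnp and Cd3d stayed first for Madcam1 and Ltb. These are descriptions over tumors that share their treatment groups and a total read depth.

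**Figure D3:**
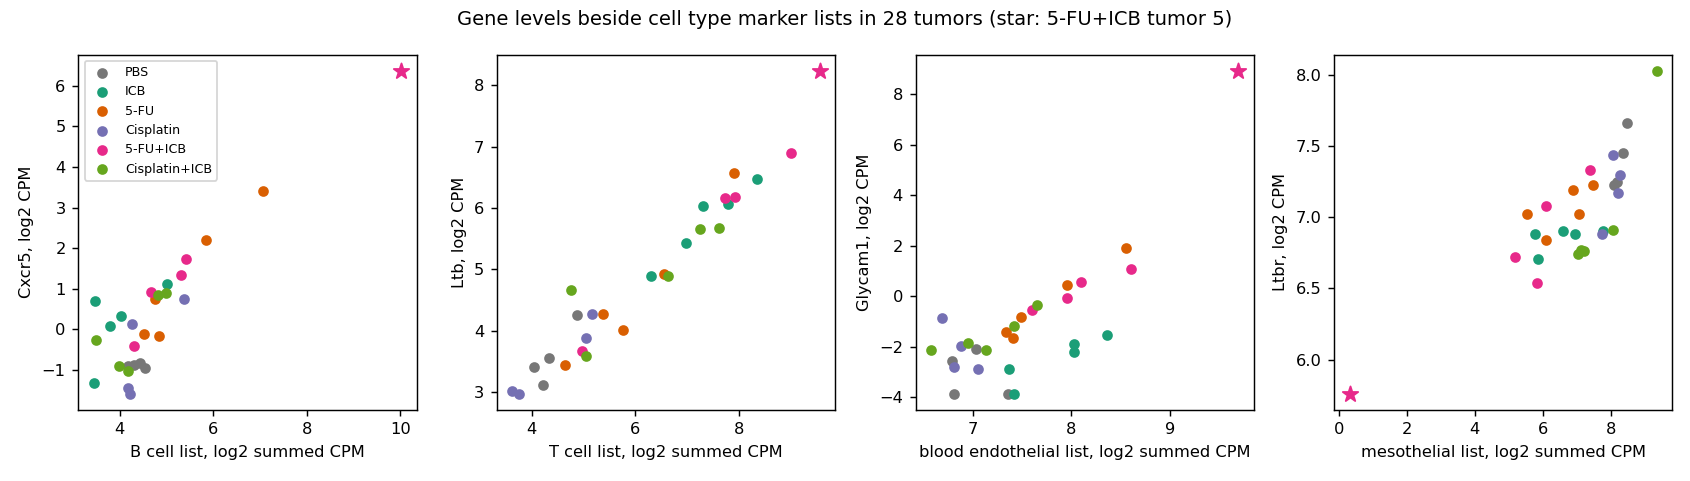
Levels of Cxcr5, Ltb, Glycam1 and Ltbr (vertical axes, log2 CPM) against the summed level of the B cell, T cell, blood endothelial and mesothelial marker lists (horizontal axes, log2 summed CPM) in 28 tumors; colors give the groups and the star is 5-FU+ICB tumor 5. The star lies at the upper right for the first 3 genes and at the lower left for Ltbr, where the mesothelial list is at 1.25 CPM.

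Ltbr went with the tumor cell marker. Its r with Msln was 0.73 over 27 tumors, whereas the other 8 genes had r from -0.86 (Cxcl13) to -0.46 (Madcam1). Mesothelial markers summed to 272 to 358 CPM in PBS, 212 to 308 CPM in cisplatin, 54.1 to 217 CPM in ICB, 46.0 to 177 CPM in 5-FU, 132 to 655 CPM in cisplatin+ICB and 1.25 to 168 CPM in 5-FU+ICB tumors. Other tissues were present to a varying degree. Skeletal muscle markers summed to 88.0 to 153 CPM in PBS, 0.731 to 2910 CPM in ICB, 84.3 to 269.9 CPM in cisplatin and 41.6 to 792 CPM in cisplatin+ICB tumors, but to 793 to 1212 CPM in 4 of the 5 5-FU tumors and 481 to 3922 CPM in 4 of the 5 5-FU+ICB tumors. Adipocyte markers summed to 18.4 to 46.6 CPM in PBS, 1.07 to 180 CPM in ICB, 35.3 to 70.9 CPM in cisplatin and 43.0 to 216 CPM in cisplatin+ICB tumors. They summed to 138 to 315 CPM in the same 4 5-FU tumors and 57.0 to 307 CPM in the same 4 5-FU+ICB tumors. Tumor 2 of either 5-FU group was the exception, with 6.11 and 1.18 CPM of muscle and 9.85 and 8.62 CPM of adipocyte markers. Its Glycam1 (0.252 and 0.62 CPM, on 7 and 20 counts), Ccl19 (0.575 and 1.71 CPM), Cxcr5 and Lta were above every PBS tumor. Its Ltb lay within the PBS range, and its Madcam1 held 0 and 1 counts. Ccl21a was within the PBS range in 5-FU tumor 2 (0.431 CPM) and below it in 5-FU+ICB tumor 2 (0.093 CPM). Cxcl13 was above every PBS tumor in the first (175 CPM) and below every PBS tumor in the second (15.2 CPM). Keratinocyte markers were below 23 CPM but for ICB tumor 2. Glycam1 is also a milk gene, so mammary genes were examined. Csn3 had 55.1 CPM in tumor 5 against at most 0.901 CPM elsewhere, while Wap was at 0 in all 28 tumors and Csn2, Lalba and Csn1s1 held 25, 13 and 7 counts in tumor 5. The part that the makeup of a sample had in these levels was not tested.

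The surrounding pathway was examined through 55 further genes in 5 lists, none of which is one of the 9. They were tested with edgeR and Benjamini-Hochberg adjustment over all genes, but like the 9 they were listed with earlier results of these data known, so their shares are a description. ICB raised 24 and lowered 1 of the 54 tested against PBS, 46.3% of them beside 37.8% of all genes, and their median log2 fold change was 1.03 beside -0.034 over all genes. 5-FU raised 17 of 54 (31.5% beside 23.0%, median 0.79), and 8 in the joint fit of all 6 groups (4.45% of all genes). 5-FU+ICB raised 38 and lowered 1 of 54 (72.2% beside 40.7%, median 1.72), and without tumor 5 it raised 34 and lowered 1 (median 1.22, beside 36.8% of all genes). Cisplatin+ICB raised 12 of 53 (22.6% beside 6.10%, median 0.75), and without its tumor 1 it raised 25 and lowered 1 (beside 35.3%). With all its tumors the count was 2 with the replicate block (0.533% of all genes), 8 in the joint fit and 20 by DESeq2 (10.1%). Over the 6 alternatives other than leaving out tumors, the joint fit among them, 95 to 2156 of all genes were called. Cisplatin alone changed 0 of 53 by edgeR, with 0 at an unadjusted p under 0.05 and 0 by DESeq2. The 5-FU count of 17 fell to 9 and 10 without PBS tumors 1 and 2 (10.5% and 7.87% of all genes) and to 11 without 5-FU tumor 3 or 5-FU tumor 5 (16.5% and 14.1%). The cisplatin+ICB count of 12 fell to 0 without PBS tumor 1, 3 or 4 (0% of all genes), to 6 without PBS tumor 2 (4.35%), to 2 without cisplatin+ICB tumor 2 or 4 (1.40% and 1.50%) and to 3 without its tumor 5 (2.04%).

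**Figure D4:**
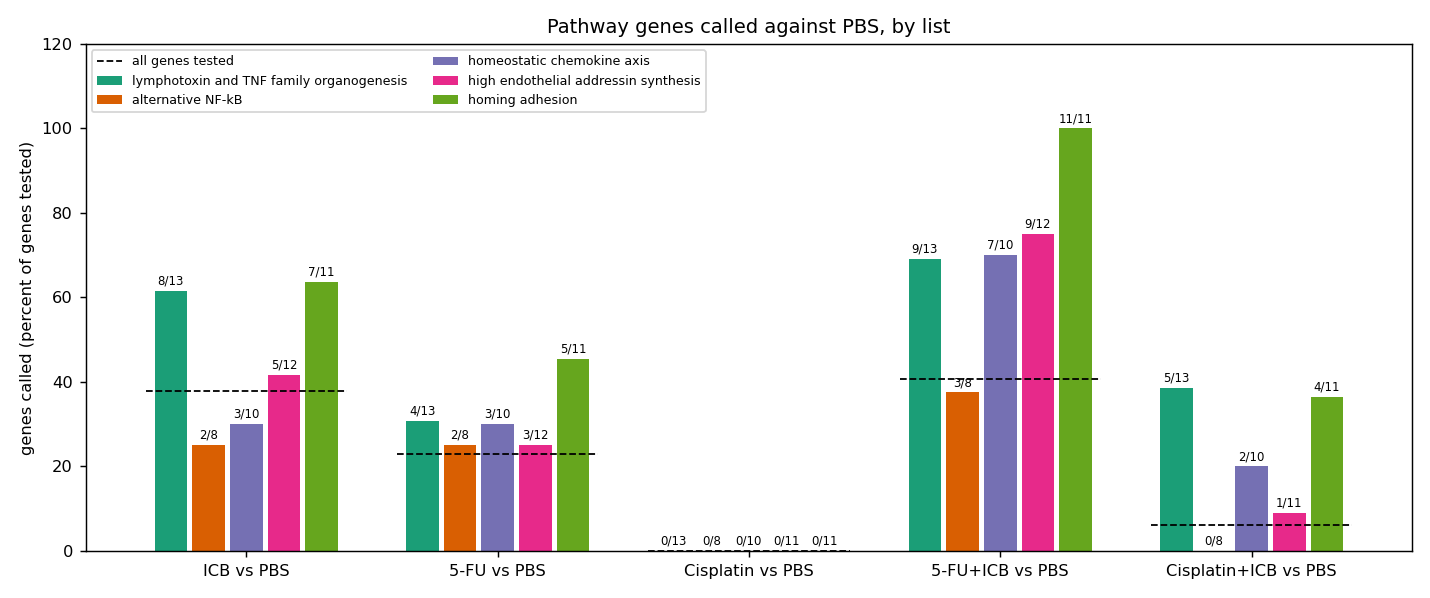
Percent of the tested genes of each pathway list that passed the thresholds (vertical axis) in 5 comparisons with PBS; numbers over the bars give genes called of genes tested, and dashed lines give the percent of all genes called. All 11 homing adhesion genes passed with 5-FU+ICB, and none of any list with cisplatin alone.

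High endothelial addressin synthesis was the list closest to Glycam1 and Madcam1, with enzymes that build these sulfated sugars and further markers of these vessels. It rose with 5-FU+ICB in 8 of 12 genes and fell in 1, and in 6 and 1 without tumor 5 (75% and 58.3%, beside 40.7% and 36.8% of all genes). With ICB 5 of 12 passed (41.7% beside 37.8% of all genes), with 5-FU 3 (25% beside 23.0%), and with cisplatin+ICB 1 of 11 (9.09% beside 6.10%), or 4 without its tumor 1 (36.4% beside 35.3%). Chst4, the sulfotransferase restricted to high endothelial cells, held 1 count in the 4 PBS libraries together, 1 to 16 in each ICB library, 0 to 5 in each cisplatin and 0 to 25 in each cisplatin+ICB library. The 5-FU libraries held 59, 34 of them in tumor 3, and the 5-FU+ICB libraries 469, 372 of them in tumor 5. With ICB its log2 fold change was 4.05 ± 1.90 (adjusted p = 0.09399), and it was not tested in the cisplatin matrix. The ratio of summed Chst4 counts to PBS, per unit of depth, was 44.8 with 5-FU (95% exact interval 7.74 to 1801) and 386 with 5-FU+ICB (69.0 to 15282). It was 93.6 (16.4 to 3735) without tumor 5, and these intervals cover counting error only. The separate edgeR test of Chst4 gave an adjusted p of 0.04715 with 5-FU and 0.002177 with 5-FU+ICB, and 0.003984 without tumor 5. With 1 count in PBS, Chst4 passed the filter on low counts through the treated groups, so these p-values are only a description. Ackr1, the atypical chemokine receptor of venules, was at 0.622 ± 0.213 CPM (SD, n = 4) in PBS and rose to 5.27 ± 3.01 CPM (n = 5) with 5-FU, by 3.08 ± 0.83 on the log2 scale (adjusted p = 0.01496). With 5-FU+ICB its log2 fold change was 4.06 ± 0.86 (adjusted p = 0.002047), and 3.08 ± 0.71 without tumor 5 (adjusted p = 0.004307). Enpp2, which makes lysophosphatidic acid at these vessels, rose by 1.73 ± 0.46 with 5-FU (adjusted p = 0.01373) and by 1.82 ± 0.46 with ICB (adjusted p = 0.005099). Fut7, the fucosyltransferase of selectin ligands, which leukocytes also use, rose by 2.31 ± 0.68 with ICB (adjusted p = 0.01205), 2.70 ± 0.69 with 5-FU+ICB (adjusted p = 0.005336) and 1.71 ± 0.45 with cisplatin+ICB (adjusted p = 0.03562). Without the tumors that stood apart, Fut7 still passed in both combinations, at 2.06 and 1.87. Fut4 rose by 1.39 ± 0.55 with ICB (adjusted p = 0.0489). Cd34, an addressin backbone on endothelium, was the only gene of the 54 tested to fall with ICB, by 1.19 on the log2 scale (SE 0.32, adjusted p = 0.00809), from 1129 ± 288 CPM (SD, n = 4) to 493 ± 155 CPM (n = 5), and it fell with 5-FU+ICB too. In PBS, Cd34 stood above the sum of the 8 blood endothelial markers (111 to 164 CPM). That sum was higher with ICB (165 to 328 CPM), and which cells held the Cd34 RNA was not tested.

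Genes of homing adhesion, among them integrins and their ligands, rose in 7 of 11 cases with ICB, 5 with 5-FU, 11 with 5-FU+ICB (10 without tumor 5) and 4 with cisplatin+ICB (9 without its tumor 1). With all tumors these shares were 63.6%, 45.5%, 100% and 36.4%, beside 37.8%, 23.0%, 40.7% and 6.10% of all genes, and without tumor 5 and tumor 1 the last pair was 90.9% beside 36.8% and 81.8% beside 35.3%. Itgal, the integrin chain of lymphocytes that binds ICAM-1, rose by 3.86 ± 0.61 with ICB (adjusted p = 0.0003741), 2.52 ± 0.57 with 5-FU (adjusted p = 0.007643), 4.05 ± 0.61 with 5-FU+ICB (adjusted p = 0.0003624) and 2.86 ± 0.73 with cisplatin+ICB (adjusted p = 0.03137). Its partner Itgb2 rose by 2.72 ± 0.48 with ICB (adjusted p = 0.000629) and by 1.91 ± 0.43 with cisplatin+ICB (adjusted p = 0.02131). Their ligand Icam1 rose by 2.62 ± 0.43 with ICB (adjusted p = 0.000465) and by 1.76 ± 0.43 with cisplatin+ICB (adjusted p = 0.0274). Among the endothelial members, Selp (P-selectin) rose by 2.88 ± 0.60 with 5-FU (adjusted p = 0.005853) and 3.37 ± 0.62 with 5-FU+ICB (adjusted p = 0.001006, and 2.88 ± 0.56 without tumor 5), and Vcam1 by 1.67 ± 0.35 with 5-FU (adjusted p = 0.006078).

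The lymphotoxin and TNF family list, ligands and receptors of lymphoid organ formation, rose in 8 of 13 cases with ICB, 4 with 5-FU, 9 with 5-FU+ICB (8 without tumor 5) and 5 with cisplatin+ICB (7 without its tumor 1), or 61.5%, 30.8%, 69.2% and 38.5% of the list, beside 37.8%, 23.0%, 40.7% and 6.10% of all genes. Without the tumors that stood apart the last pair was 61.5% beside 36.8% and 53.8% beside 35.3%. Tnf, which lies between Lta and Ltb, rose from 2.19 ± 0.876 CPM (SD, n = 4) in PBS by 3.36 ± 0.53 with ICB (adjusted p = 0.0003694), 2.43 ± 0.51 with 5-FU (adjusted p = 0.005744), 2.86 ± 0.51 with 5-FU+ICB (adjusted p = 0.0009159) and 2.78 ± 0.53 with cisplatin+ICB (adjusted p = 0.01209), all on the log2 scale. Il7r, the receptor of the lymphocyte survival factor IL-7, rose by 3.08 ± 0.61, 1.96 ± 0.58, 3.34 ± 0.62 and 2.36 ± 0.57 in the same order (adjusted p = 0.001259, 0.02237, 0.001034 and 0.0253). Tnfrsf14, the LIGHT receptor, rose by 2.38 ± 0.27 with ICB (adjusted p = 3.807e-05), 0.94 ± 0.26 with 5-FU (adjusted p = 0.01681) and 1.75 ± 0.31 with cisplatin+ICB (adjusted p = 0.01158). The BAFF receptor of B cells, Tnfrsf13c, rose by 5.05 ± 1.41 with 5-FU+ICB (adjusted p = 0.008881), and did not pass without tumor 5, which held the B cell markers given above (1.57 ± 0.77, adjusted p = 0.1116). Downstream of Ltbr, the alternative NF-kappaB genes rose in 2 of 8 cases with ICB (Birc3, by 1.41 ± 0.25, adjusted p = 0.0007418, and Relb, by 0.82 ± 0.17, adjusted p = 0.00195) and in 3 of 8 with 5-FU+ICB (3 also without tumor 5). Those shares, 25% and 37.5%, stood beside 37.8% and 40.7% of all genes called, and 36.8% without tumor 5. With cisplatin+ICB 0 of 8 passed, and 3 without its tumor 1 (37.5% beside 35.3%). With 5-FU 2 of 8 passed (25% beside 23.0%), as Traf3 rose by 0.99 ± 0.31 (adjusted p = 0.02702) and Birc3 by 0.71 ± 0.25 (adjusted p = 0.0442).

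In the homeostatic chemokine list, 3 of 10 genes rose with ICB, 3 with 5-FU, 7 with 5-FU+ICB (7 also without tumor 5) and 2 with cisplatin+ICB (3 without its tumor 1). The share with ICB, 30%, was below the 37.8% of all genes, that with 5-FU, also 30%, was beside 23.0%, and that with cisplatin+ICB, 20%, was beside 6.10%. The 70% with 5-FU+ICB stood beside 40.7%, or 36.8% without tumor 5, and the 30% with cisplatin+ICB without its tumor 1 was below the 35.3% of all genes. Cxcl12, the stromal ligand of CXCR4, rose from 30.5 ± 4.41 CPM (SD, n = 4) by 2.11 ± 0.63 with ICB (adjusted p = 0.01325), 2.62 ± 0.64 with 5-FU (adjusted p = 0.01049), 3.42 ± 0.67 with 5-FU+ICB (adjusted p = 0.001344) and 2.04 ± 0.58 with cisplatin+ICB (adjusted p = 0.04647). Cyp7b1, an enzyme of the oxysterol that positions B cells and dendritic cells, rose by 1.88 ± 0.61, 2.76 ± 0.63, 3.32 ± 0.65 and 2.07 ± 0.55 in the same order (adjusted p = 0.02057, 0.008111, 0.001331 and 0.03588). Ch25h, the enzyme before it, rose with ICB by 1.23 ± 0.33 (adjusted p = 0.007535), and Ackr3, which scavenges CXCL12, rose with 5-FU by 1.37 ± 0.44 (adjusted p = 0.03123). Ccr6, a chemokine receptor of B cells, rose with 5-FU+ICB by 3.80 ± 1.02 (adjusted p = 0.007211), and by 1.48 ± 0.56 without tumor 5 (adjusted p = 0.04282). Without tumor 5 the 5-FU+ICB changes of Itgal, Tnf, Il7r, Cxcl12 and Cyp7b1 were 3.79, 2.97, 2.90, 3.39 and 3.41, and without cisplatin+ICB tumor 1 those with cisplatin+ICB were 3.26, 3.06, 2.71, 2.35 and 2.33. Itgb2, Icam1 and Tnfrsf14 stood at 2.22, 2.08 and 1.98 there, and all of these still passed.

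Between the combinations and their single agents, edgeR called 0 of the 54 genes tested in the 5-FU matrix and 0 of the 53 in the cisplatin matrix. At an unadjusted p under 0.05 there were 15 for 5-FU+ICB against ICB, 31 for 5-FU+ICB against 5-FU, 9 for cisplatin+ICB against ICB and 19 for cisplatin+ICB against cisplatin. DESeq2 called 5, 4, 0 and 9 in that order, beside 1.68% of all genes for the first, 2.97% for the second and 4.20% for the last. Without the tumor that stood apart in each combination, the unadjusted counts were 10, 11, 5 and 29 in the same order. The share of all genes at an unadjusted p under 0.05 was not counted, here or for the interactions below, so nothing is read from the unadjusted counts. Without 5-FU tumor 3 edgeR called 10 for 5-FU+ICB against 5-FU (3.58% of all genes), and without 5-FU+ICB tumor 2 it called 22 (10.9%). Without cisplatin+ICB tumor 1 it called 20 against cisplatin (11.9%), and without its tumor 3 it called 7 (3.04%). Whether the change with ICB differed in the presence of a chemotherapy was tested as an interaction. For 5-FU, 0 of 54 genes were called beside 0.0893% of all genes (14 at an unadjusted p under 0.05, 3 by DESeq2 beside 9.57% of all genes, and 2 without any 1 of PBS tumors 3 and 4, 5-FU tumor 4 and 5-FU+ICB tumor 4, beside 9.27%, 5.56%, 0.456% and 5.35%). For cisplatin, 0 of 53 were called (2 unadjusted, 0 by DESeq2). These comparisons share the PBS and ICB tumors.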

How the data were processed

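The authors sequenced whole tumor RNA (100-base single-end reads) and, per the labels and methods, made reads with bcl2fastq 2.20.0.422, quantified them with kallisto 0.46.0 against GRCm38/mm10, removed transcripts with low counts, and compiled with tximport 2 matrices of estimated counts per gene symbol, 1 for 5-FU and 1 for cisplatin. The deposited estimated counts (23.7% of values not whole) were rounded. The 9 PBS and ICB tumors in both matrices had identical values and were used once for the levels of all 28 tumors; ICB against PBS was fitted in the 5-FU matrix. Libraries held 23541733 to 33950805 counts. The members and lists were chosen with earlier results of these data known.

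Levels are CPM after TMM scaling of the joined tumors; log2 CPM used a prior count of 2. Each matrix was filtered with filterByExpr (17916 and 17819 genes kept) and fitted whole with edgeR 4.0.16 (R 4.3.3) in a quasi-likelihood model of its 4 groups; p-values were two-sided and adjusted by Benjamini-Hochberg over all genes, and calls used an adjusted p under 0.05 with an absolute log2 fold change over 0.5, the study's thresholds. SEs are those of the fitted log2 fold changes. In simulated data for ICB against PBS (17536 genes, 200 changed by 2 on the log2 scale) 99% were recovered. Recovery in the other comparisons and of changes of another size was not tested, so nothing is read from the 99% for the 9 genes. DESeq2 1.42.0, which the authors used, was an alternative, beside other scalings, no filter, a replicate block, a joint fit and leaving out each tumor. Genes named in the lists are up to 3 called genes per list, comparison and direction with the largest change; the genes most like a member are the 2 with the highest Pearson r. One gene that this rule names is not reported here. Tabulations used Python 3 with the promoters from RefSeq.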

Additional observations from a re-analysis of the deposited data

Results flagged for a closer look

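Within each group of 4 or 5 tumors, the highest and lowest level of each of the 9 genes was set against the rest of its group by Dixon's criterion on the log2 scale. Of 54 such groups 5 held a value past it. The criterion flags about 1 group in 20 by chance, but the genes were chosen partly for this spread, so nothing is read from the number. In 5-FU+ICB tumor 5, Glycam1 was at 491 CPM, 7.86 on the log2 scale above the next tumor of its group, and Madcam1 was at 38.0 CPM, 6.70 above the next. In PBS tumor 3, Ccl21a was at 0.217 CPM, 1.32 below the next tumor. Ltbr was at 104 CPM in ICB tumor 3, 0.17 below the next, and at 261 CPM in cisplatin+ICB tumor 1, 1.13 above the next.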

How the results depend on the processing

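The number of the 9 genes highest in 5-FU+ICB went from 8 to 4 without 5-FU+ICB tumor 5, an alternative chosen after seeing the data. Calls among the pathway genes moved by more than 1.5 times as follows, and the cause was not tested. For 5-FU against PBS (17 called) the joint fit of all 6 groups gave 8, and leaving out single tumors gave 9 to 25. For cisplatin+ICB against PBS (12) DESeq2 gave 20, the replicate block 2 and leaving out single tumors 0 to 26. Where edgeR called 0, DESeq2 called 5 for 5-FU+ICB against ICB, 4 for 5-FU+ICB against 5-FU, 9 for cisplatin+ICB against cisplatin and 3 for the interaction of 5-FU with ICB, and leaving out single tumors gave 0 to 22, 0 to 20 and 0 to 2 for the last 3. No called fold change of the 9 genes changed sign. Among values that were not called, the Glycam1 change with ICB ran from -0.72 with the replicate block to 1.78 without PBS tumor 4. Over all genes, DESeq2 called 327 against edgeR's 41 for 5-FU+ICB against ICB, 539 against 2 for 5-FU+ICB against 5-FU, 783 against 0 for cisplatin+ICB against cisplatin, 52 against 0 for cisplatin+ICB against ICB and 2156 against 1087 for cisplatin+ICB against PBS, which the replicate block cut to 95; the joint fit of all 6 groups called 825 against 4115 for 5-FU against PBS. Without TMM the median of all genes shifted by 0.125 for 5-FU and 0.14 for cisplatin against PBS and by -0.163 for 5-FU+ICB against 5-FU, and the 5-FU calls split into 2005 higher and 1192 lower, from 1788 and 2327. In the median, tumors with the same replicate number did not deviate together (r -0.02 over 66 pairs, against 0.01 over 260 others). Single same-number pairs ran from -0.63 to 0.66, and other ways of pairing the tumors were not tested. With the block the pathway counts were 22 for ICB, 13 for 5-FU (beside 18.6% of all genes) and 33 for 5-FU+ICB (beside 35.8%) against PBS. For ICB, 4663 to 7403 of all genes were called over the 7 alternatives other than leaving out tumors, the block among them.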
